A study of Mus musculus with 6 samples.

Results

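FGF signalling in the organ of Corti was followed through 7 genes: the ligand Fgf8, the receptors Fgfr1, Fgfr2 and Fgfr3, and the Sprouty genes Spry1, Spry2 and Spry4. They were taken by gene symbol from the 24411 symbols of each library, and all 7 passed the filter on low counts that 15303 genes passed. Cochlear sensory epithelium of P9 mice with genotype Otof rtTA+/-; Kir2.1+/-, called Kir2.1-OE, was compared with that of littermate controls with genotype Otof rtTA+/-; Kir2.1+/+, each group as 3 pools of 8 cochleae from 4 mice. Both genotypes thus carried the rtTA transactivator under the Otof promoter, on a C57BL/6N background, and both were exposed to doxycycline (DOX) through the mother, whose water held 0.5 mg/ml, which in Kir2.1-OE mice turns on expression of Kir2.1, a K+ channel that holds the membrane potential negative, mainly in inner hair cells (IHCs). The study asked what changes in the tissue when IHCs no longer fire their own Ca2+ action potentials before the onset of hearing. The replicate was the pool, not the mouse, and the RNA was that of the whole dissected epithelium, so for every gene below fewer cells of a type and less RNA per cell cannot be told apart.

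Fibroblast growth factors are secreted proteins that, together with heparan sulfate, pair up receptor tyrosine kinases of the FGFR family and so start the RAS to ERK cascade. In the cochlea, IHCs are the source of FGF8, which acts on FGFR3 in the neighbouring cells and drives them to become pillar cells, the stiff supporting cells that line the tunnel of Corti. FGFR1 is needed for the sensory progenitors, FGFR2 for the early otic epithelium, and Sprouty proteins are induced by the pathway and hold it back inside the cell.

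The deposited values were estimated read counts per gene, with between 35430940 and 41205047 reads assigned per library. Kcnj2, which encodes Kir2.1, had 3213 ± 872 normalized counts (counts scaled to a common library size; SD, n = 3 pools) in Kir2.1-OE and 229.9 ± 5.16 (SD, n = 3) in control pools, so each library followed its label, and Kir2.1-OE replicate 3 had the lowest value of its group (2213). A gene counted as called when edgeR's quasi-likelihood test, with p-values adjusted by Benjamini-Hochberg over all genes tested, gave an adjusted p below 0.05 and the fold change exceeded 1.5. Of all genes, 20.5% were called, 15.5% as higher and 5.08% as lower in Kir2.1-OE pools. The adjusted p-value alone passed 50.8% of genes, 27.3% as higher and 23.5% as lower.

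None of the 7 FGF genes was called. The receptors stood higher in Kir2.1-OE pools by 38.1% (Fgfr1), 32.3% (Fgfr2) and 25.1% (Fgfr3), and Spry4 by 23.2%, all under the 1.5-fold threshold. These 4 genes passed the adjusted p-value alone, beside the 27.3% of all genes that did so as higher, and they were also the 4 members with an unadjusted p-value under 0.05. Spry1 (4.73%), Spry2 (-4.57%) and Fgf8 (-20.2%) did not pass the test. DESeq2's Wald test and limma-voom also called 0 of the 7, as did edgeR's glmTreat test against a log2 fold change of 0.6, which called 5.81% of all genes.

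Promoter windows of 300 bases, most of them upstream of the start of transcription, were matched by symbol in the RefSeq table of GRCm38.p6 for 4 of the 7 genes, Fgfr2, Fgfr3, Spry1 and Spry2. They were searched on both strands for CCGGAA and CGGAAG, letters of the core bound by ETS factors such as ETV4 and ETV5, which act downstream of FGF receptors. The motifs can overlap each other, since the end of the first is the start of the second. CCGGAA was present in 14.9% and CGGAAG in 16.9% of 32851 windows of the same length, and one or the other in 21.9%. Of the members, only the Spry2 window held a match, 1 CCGGAA, and the windows of Fgfr2, Fgfr3 (both starts) and Spry1 held none. The windows shown are those of the receptors with a RefSeq window, Fgfr2 (chr7:130266759-130267058, minus strand) and Fgfr3 (chr5:33721474-33721773, plus strand, the first of its starts), and that of Spry2 (chr14:105896770-105897069, minus strand), with the match in capitals.
Fgfr2: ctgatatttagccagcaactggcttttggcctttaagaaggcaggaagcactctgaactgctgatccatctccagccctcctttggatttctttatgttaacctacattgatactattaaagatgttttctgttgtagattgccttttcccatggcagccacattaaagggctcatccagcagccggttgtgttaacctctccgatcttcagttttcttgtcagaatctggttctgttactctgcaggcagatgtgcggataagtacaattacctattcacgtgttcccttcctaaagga
Fgfr3: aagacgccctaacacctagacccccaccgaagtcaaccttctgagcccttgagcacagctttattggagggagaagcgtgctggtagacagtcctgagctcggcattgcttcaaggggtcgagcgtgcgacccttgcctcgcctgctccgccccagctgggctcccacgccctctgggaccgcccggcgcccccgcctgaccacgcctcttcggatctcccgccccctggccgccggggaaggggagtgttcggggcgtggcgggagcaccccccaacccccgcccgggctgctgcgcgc
Spry2: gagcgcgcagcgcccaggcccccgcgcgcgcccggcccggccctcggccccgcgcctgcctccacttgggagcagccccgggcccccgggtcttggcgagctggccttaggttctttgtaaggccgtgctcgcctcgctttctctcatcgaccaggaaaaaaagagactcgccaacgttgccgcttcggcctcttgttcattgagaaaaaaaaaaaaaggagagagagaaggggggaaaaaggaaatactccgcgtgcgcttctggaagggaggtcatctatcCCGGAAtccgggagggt

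Levels were first compared per length, as RPKM (reads per kilobase of the longest annotated transcript, scaled to the library's size). Fgfr3 had the highest level in control pools, 44.3 ± 2.21 (SD, n = 3), apart from all other members. Fgfr1 (23.9 ± 1.93), Spry2 (22.1 ± 1.34) and Fgfr2 (20.7 ± 1.64) followed, and the ranges of neighbours in this order overlapped. Spry1 stood lower, at 4.71 ± 0.175, above Fgf8 (3.22 ± 0.623) and Spry4 (3.16 ± 0.273), which overlapped each other. The ligand Fgf8 thus lay, in dissected tissue, near the bottom of the set and the receptor Fgfr3 at the top. Which cells supplied the RNA of either gene was not measured.

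In Kir2.1-OE pools the level per length was 55.5 ± 7.88 for Fgfr3, 33.1 ± 2.06 for Fgfr1 and 27.4 ± 3.50 for Fgfr2 (SD, n = 3). The 3 receptors then formed the top of the order, each with a range apart from the next below it, and Spry2 (21.1 ± 0.569) came next. Spry1 (4.94 ± 0.0833) was followed by Spry4 (3.89 ± 0.0210) and Fgf8 (2.57 ± 0.0562), so the last pair changed places. With the median instead of the longest annotated transcript, Fgfr2 stood above Spry2 in controls too, and the control level of Fgfr3 was 194.4, because 17 transcripts are annotated for Fgfr3 and their median length is 968 nt against 4245 nt for the longest.

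**Figure D1:**
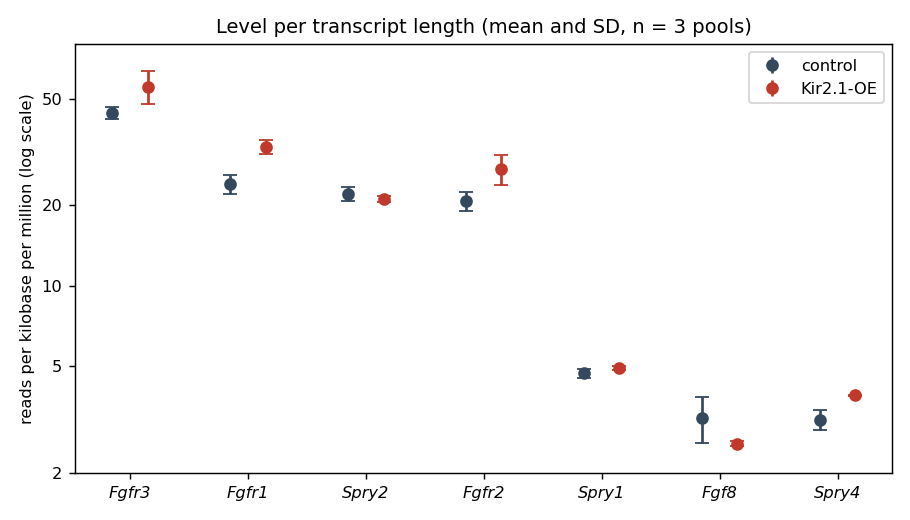
Level of each FGF gene in RPKM over its longest annotated transcript, on a log axis, in control and Kir2.1-OE pools (points, mean; bars, SD; n = 3 pools). Fgfr3 is the highest in both genotypes, at 44.3 and 55.5, and Fgf8 and Spry4 lie lowest.

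Fgf8 (chr19:45736798-45742915, minus strand, mm10) had 112.9, 114.9 and 110.0 normalized counts in the Kir2.1-OE pools and 120.4, 130.8 and 172.0 in the control pools, each in the order of replicates 1 to 3. The control pools were spread and the Kir2.1-OE pools close together, and the groups did not overlap. The log2 fold change was -0.32 (standard error 0.186, edgeR adjusted p = 0.173), with a 95% interval from -0.74 to 0.094, which includes both no difference and a fall of over 1.5-fold. Without control replicate 3, the pool with the most Fgf8, it was -0.16. An exact permutation test over the pools gave p = 0.10 (two-sided), the smallest that 3 pools against 3 allow.

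Other IHC genes had other values than Fgf8. Otof, the Ca2+ sensor of IHC exocytosis, whose promoter drives the transactivator in both genotypes, was called higher (log2 fold change 0.76, edgeR adjusted p = 0.00174), a call that ended with offsets for transcript length and GC content (-0.074, edgeR adjusted p = 0.609), while Slc17a8, the vesicular glutamate transporter of IHCs, had 0.091 (edgeR adjusted p = 0.535). Within each pool, where library scaling cancels, the log2 ratio of Fgf8 to Slc17a8 counts was -3.98, -3.91 and -3.72 in Kir2.1-OE and -3.48, -3.56 and -3.36 in control replicates 1 to 3, a difference of -0.40 with no overlap. The log2 ratio of Fgf8 to Otof was -5.07 ± 0.144 (SD, n = 3) in Kir2.1-OE and -3.98 ± 0.552 in control pools. The longest transcripts of Otof (7419 nt) and Slc17a8 (4456 nt) are far longer than that of Fgf8 (1168 nt), and with the offsets the 3 genes stood closer, with log2 fold changes of -0.074 for Otof, 0.0095 for Slc17a8 and -0.18 for Fgf8. Of the 5 IHC markers, 2 were called higher and 0 lower, beside 15.5% and 5.08% of all genes. With the offsets 1 was called higher, beside 903 of all 15303 genes, and the list's median went from 0.32 to 0.0095 on the log2 scale. Their summed normalized count lay between 9484 and 11112 in Kir2.1-OE and between 6988 and 7807 in control pools, and none was at 0 in any library; their part in the value of Fgf8 was not tested.

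Fgfr1 (chr8:25513654-25575718, plus strand) had 6693, 6137 and 5942 normalized counts in Kir2.1-OE and 4140, 4861 and 4594 in control replicates 1 to 3. Every Kir2.1-OE pool lay above every control pool. The log2 fold change was 0.47 (standard error 0.0828, 95% interval 0.28 to 0.65, edgeR adjusted p = 0.0016), the largest of the 7 genes. It lay between 0.40 and 0.52 when each library was left out in turn.

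Fgfr2 (chr7:130162451-133123350, minus strand) had 5113, 4592 and 3950 normalized counts in Kir2.1-OE and 3169, 3437 and 3714 in control replicates 1 to 3. Its locus as annotated in GENCODE reaches far upstream of the RefSeq start whose promoter window is shown above. The groups did not overlap, although the lowest Kir2.1-OE pool, replicate 3, came close to the highest control pool. The log2 fold change was 0.40 (standard error 0.102, 95% interval 0.17 to 0.63, edgeR adjusted p = 0.00913). Both Fgfr1 and Fgfr2 passed the adjusted p-value in each of the 6 fits without 1 library.

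Fgfr3 (chr5:33721674-33737068, plus strand) had 9807, 9282 and 7417 normalized counts in Kir2.1-OE and 6761, 6976 and 7450 in control replicates 1 to 3. Kir2.1-OE replicate 3 fell below control replicate 3, so that the groups overlapped (exact permutation test, two-sided, p = 0.20). The log2 fold change was 0.32 (standard error 0.105, 95% interval 0.088 to 0.56, edgeR adjusted p = 0.0278). The adjusted p-value was passed without Kir2.1-OE replicate 3 or control replicate 3, and missed without any other 1 of the libraries. Kir2.1-OE replicate 3 was the lowest of its group for all 3 receptors and for Kcnj2. Among markers of spiral ganglion neurons, the same pool had the most Nefh (11120) and Snap25 (8092) of its group, and the least Gata3 (9569). Whether any of these values are linked was not tested.

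The receptors kept nearly the same proportions within a pool. The log2 ratio of Fgfr3 to Fgfr2 was 0.95 ± 0.0547 (SD, n = 3) in Kir2.1-OE and 1.04 ± 0.0472 in control pools, and that of Fgfr3 to Fgfr1 was 0.49 ± 0.149 and 0.64 ± 0.105, with overlap in both cases. Against Prox1, a transcription factor of pillar and Deiters cells, the log2 ratio of Fgfr3 was 3.80 ± 0.290 and 4.62 ± 0.369, without overlap. The longest transcript of Prox1 has 7913 nt against 4245 nt for Fgfr3. With the length and GC offsets their log2 fold changes were 0.62 and -0.082. Prox1 was called higher (1.13) and Npy, a peptide gene of pillar cells with a longest transcript of 566 nt, was called lower (-1.62) in Kir2.1-OE pools. Both were also called with the offsets, at 0.62 and -1.14. Prox1 and Npy were the 2 called of the 8 pillar and Deiters markers, beside 15.5% of all genes called higher and 5.08% called lower. With the offsets 1 was again called higher and 1 lower, beside 903 and 603 of all 15303 genes, and the list's log2 median went from 0.034 to 0.15. The summed normalized count of the 8 lay between 51675 and 56419 in Kir2.1-OE and between 60847 and 69387 in control pools. Most of that sum was S100a1 (677 nt), with a mean of 30690 against 42357. S100a1 was not called (log2 fold change -0.46) and had -0.015 with the offsets. None of the 8 was at 0 in any library, and their part in the receptor values was not tested.

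Sprouty proteins block signalling between the receptor and RAF, and their genes are read as a report of pathway activity. Spry4 (chr18:38586247-38601415, minus strand) had 690.8, 695.5 and 698.2 normalized counts in Kir2.1-OE and 546.8, 526.1 and 618.9 in control replicates 1 to 3. The Kir2.1-OE pools agreed closely and all lay above the controls, with a log2 fold change of 0.30 (standard error 0.0933, 95% interval 0.092 to 0.51, edgeR adjusted p = 0.0228). That p-value was passed in 1 of the 6 fits without 1 library, the one without control replicate 3.

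Spry1 (chr3:37639947-37644598, plus strand) had 507.0, 523.6 and 510.9 normalized counts in Kir2.1-OE and 511.7, 478.8 and 481.5 in control replicates 1 to 3. The groups overlapped, with a log2 fold change of 0.067 and a 95% interval from -0.14 to 0.27. Spry2 (chr14:105891947-105896819, minus strand), the most abundant Sprouty gene and the one with the CCGGAA match, had 1702, 1631 and 1620 in Kir2.1-OE and 1851, 1668 and 1670 in control replicates 1 to 3. Its log2 fold change was -0.067, with a 95% interval from -0.23 to 0.095. For both genes the interval left no room for a 1.5-fold difference in either direction.

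Within each pool, the log2 ratio of Spry2 to Fgfr3 was -2.53, -2.51 and -2.20 in Kir2.1-OE and -1.87, -2.06 and -2.16 in control replicates 1 to 3, a difference of -0.38 without overlap. The log2 ratios of Spry1 and Spry4 to Fgfr3 differed by -0.25 and -0.0094, with overlap between the genotypes. Spry2 is the shorter of its pair (2087 against 4245 nt), and with the length and GC offsets the direction reversed, with log2 fold changes of 0.14 for Spry2 and -0.082 for Fgfr3.

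**Figure D2:**
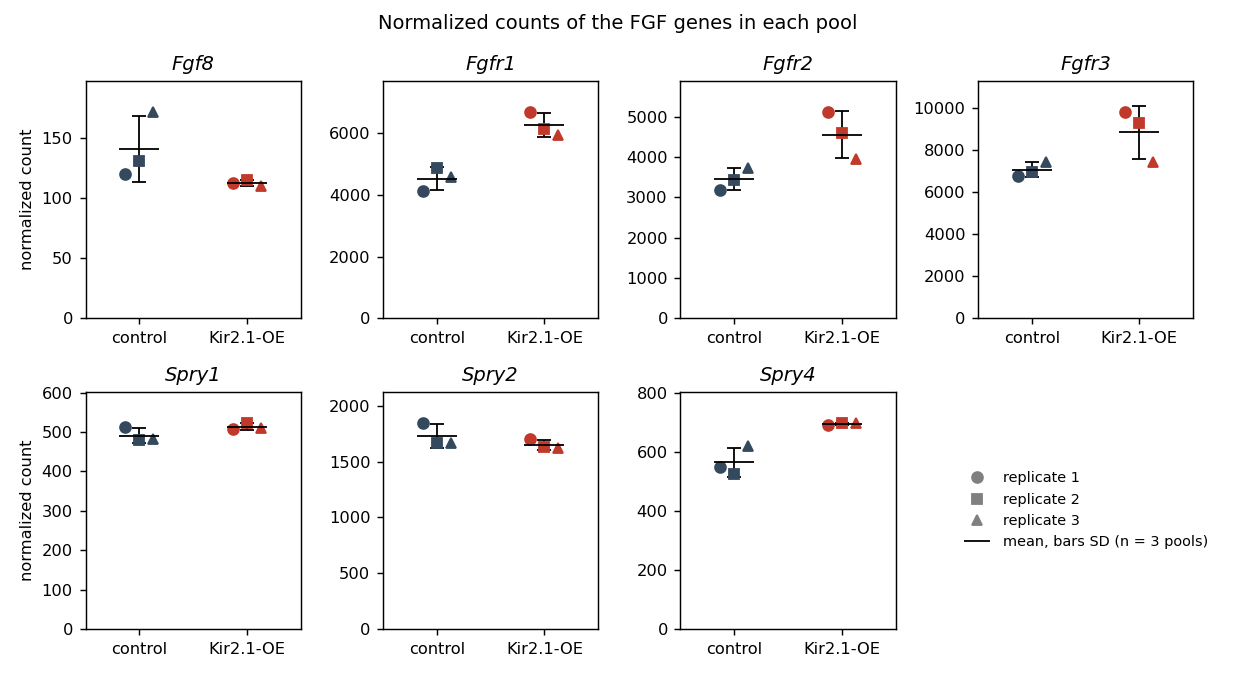
Normalized counts of the 7 FGF genes in each pool on linear axes from 0, controls in dark blue and Kir2.1-OE in red, with 1 symbol per replicate number, the mean as a line and the SD as bars (n = 3 pools). Fgfr1, Fgfr2 and Spry4 lie higher and Fgf8 lower in all 3 Kir2.1-OE pools, while Fgfr3, Spry1 and Spry2 overlap.

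Over the 7 genes the groups did not overlap for 4, of which Fgfr1, Fgfr2 and Spry4 were higher and Fgf8 lower in Kir2.1-OE pools. Among all genes tested 61.6% had no overlap, 31.7% as higher and 29.9% as lower, so this count was near the background. The 7 genes had a median log2 fold change of 0.30, beside 0.0096 for all genes tested, and with the length and GC offsets -0.049 beside -0.057.

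Across all genes the log2 fold change increased with the length of the longest annotated transcript (Spearman's rho = 0.556 over 15200 genes, which are not independent replicates), and the shorter FGF genes had lower values than the 4 longer ones, though Spry4 lay below the shorter Fgfr2 and Fgfr3. Fgf8, the shortest member at 1168 nt, had -0.32 beside a median of -0.30 for the 2502 genes of 1000 to 2000 nt. Spry2 (2087 nt) and Spry1 (2773 nt) had -0.067 and 0.067 beside a median of -0.13 for genes of 2000 to 3000 nt. Fgfr3 (4245 nt), Fgfr2 (4429 nt) and Spry4 (4755 nt) had 0.32, 0.40 and 0.30 beside a median of 0.17 for genes of 4000 to 5000 nt. Fgfr1, the longest at 5041 nt, had 0.47 beside a median of 0.30 for genes of 5000 to 6000 nt. Each of the 7 values lay between the lower and the upper quartile of the genes of its length class.

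**Figure D3:**
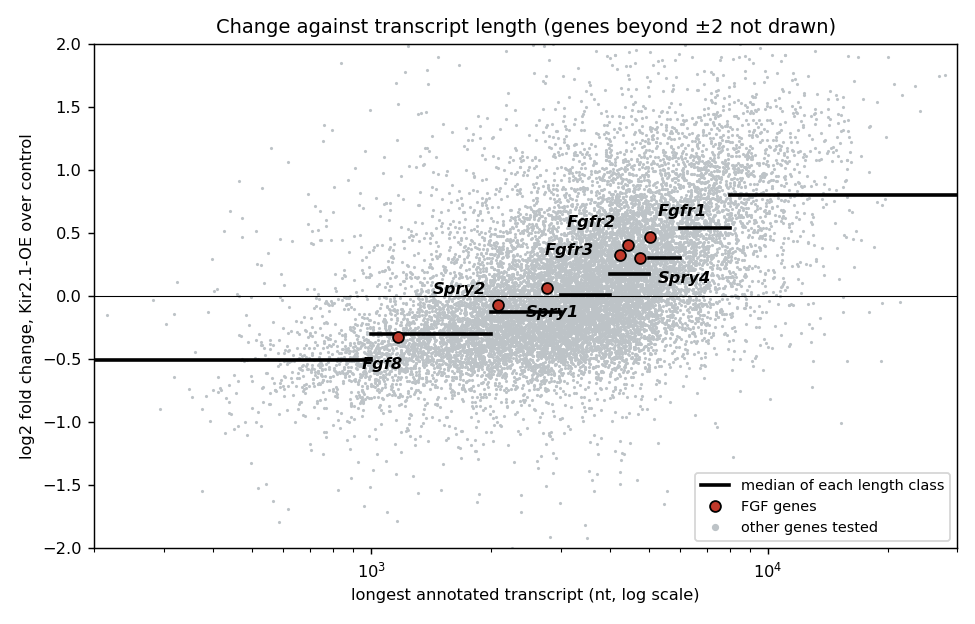
Log2 fold change (Kir2.1-OE over control) of each gene tested against its longest annotated transcript in nt on a log axis, with the FGF genes in red and the median of each length class as a black line. The medians go from -0.50 for genes under 1000 nt to 0.81 for genes of 8000 nt or more, and the FGF genes range from Fgf8 (-0.32), the shortest, to Fgfr1 (0.47), the longest.

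With offsets for transcript length and GC content for each gene and library, 0 of the 7 genes were called and 0 passed the adjusted p-value or an unadjusted p-value under 0.05, against 9.84% of all genes called and 34.8% past the adjusted p-value alone. The log2 fold change then was -0.18 for Fgf8 and 0.15 for Fgfr2, the same sign as without offsets. The sign was the opposite for Fgfr1 (-0.049), Fgfr3 (-0.082), Spry1 (-0.059), Spry2 (0.14) and Spry4 (-0.035), and the 95% interval of Fgfr3 ran from -0.31 to 0.14. The offsets remove any difference that follows length or GC content, whatever its source.

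**Figure D4:**
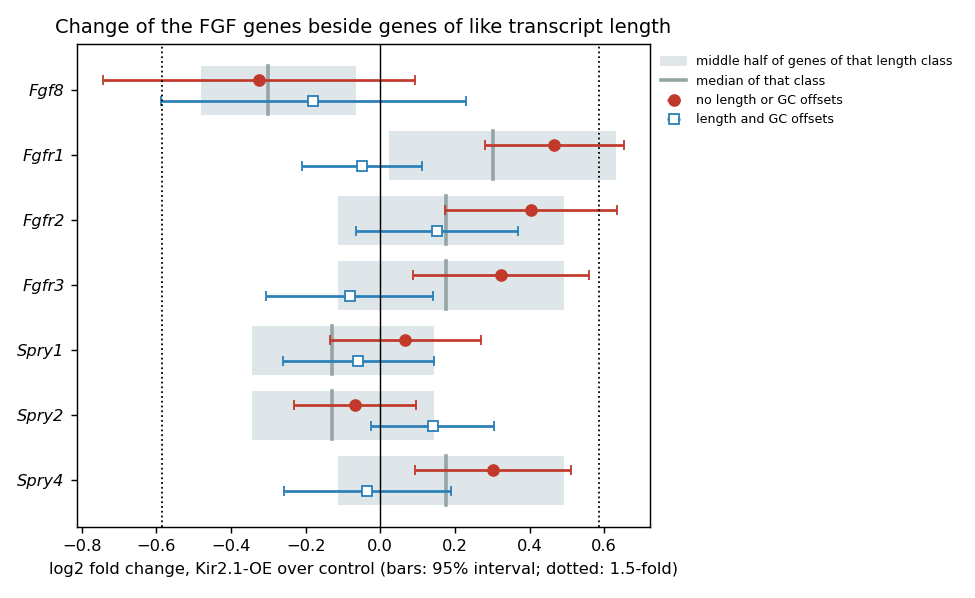
Log2 fold change of each FGF gene (Kir2.1-OE over control) without offsets (red circles) and with length and GC offsets (open blue squares), with 95% intervals, over the range from lower to upper quartile (grey bar) and median (grey line) of the genes of its length class. Without offsets the whole intervals of Fgfr1, Fgfr2, Fgfr3 and Spry4 lie to the right of 0, and with offsets every interval includes 0.

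The rest of the pathway was examined as 69 genes in 6 groups, of which 60 were tested. Of these, 11 were called higher and 0 lower, or 7 higher and 0 lower without Kir2.1-OE replicate 1. The 15.5% of all genes called higher is the background for this count. Over the 60 genes the median difference was 0.088 on the log2 scale. With the length and GC offsets 7 were called higher and 2 lower, Etv4 and the heparan sulfate enzyme gene Hs2st1. Over all 15303 genes tested the offsets left 903 called higher and 603 lower.

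Of the 17 secreted ligands, 10 were tested and 2 were called higher. Fgf1, an FGF that binds all FGF receptors, rose from 740.4, 954.1 and 932.4 normalized counts in control replicates 1 to 3 to 1932, 1419 and 2171 in those of Kir2.1-OE. Its log2 fold change of 1.07 (standard error 0.156, edgeR adjusted p = 6.11e-04) was 0.97 with the offsets, which also called it. Fgf18, a ligand of FGFR3 in cartilage, rose from 70.5 ± 18.7 to 118.0 ± 29.6 normalized counts (SD, n = 3; log2 fold change 0.74, edgeR adjusted p = 0.043), a call lost without Kir2.1-OE replicate 1 (0.72) or 3 (0.54) or control replicate 2 (0.79) or 3 (0.55). The replicate block (0.74) and upper quartile scaling (0.65) also ended the call of Fgf18. Fgf10, which is made in the nonsensory floor of the duct, had 2730 ± 512 against 2755 ± 523. Fgf3 and Fgf20, early ligands of the otic vesicle and prosensory domain, had at most 11.2 normalized counts in any library and were not tested.

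Among the 4 intracellular FGFs, which bind sodium channels and activate no receptor, Fgf12 was called higher (log2 fold change 0.78, edgeR adjusted p = 0.04), with overlapping groups. That call was lost in 5 of the 6 fits without 1 library, the exception being the one without Kir2.1-OE replicate 2, and the log2 fold change was 0.36 without Kir2.1-OE replicate 3. It was also lost with DESeq2's Wald test (adjusted p = 0.0893), limma-voom (adjusted p = 0.0808), the replicate block and upper quartile scaling. Of the 3 tested genes for other receptors and co-receptors none was called, and Fgfrl1, a receptor without a kinase, had 4395 ± 381 normalized counts against 4867 ± 327 in controls.

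Heparan sulfate enzymes shape the sugar chains that hold FGFs at their receptors, and 2 of 11 were called higher. Ndst1, which starts the sulfation of the chain, rose from 4793 ± 59.7 to 7228 ± 778 normalized counts (SD, n = 3), a log2 fold change of 0.59 that lay at the threshold, fell under it without Kir2.1-OE replicate 1 (0.50) or 2 (0.57) or control replicate 3 (0.58), and was -0.12 with the offsets. The other was Hs6st3, a sulfotransferase gene of low count, with 26.4 ± 4.66 in controls and 60.9 ± 31.6 in Kir2.1-OE pools, whose call was lost without Kir2.1-OE replicate 1 or 3 or control replicate 1 or 3. The replicate block and limma-voom also ended the call of Hs6st3.

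Of the 20 genes that carry the signal inside the cell, 4 were called higher: the kinase gene Braf (log2 fold change 0.91), the ubiquitin ligase gene Cbl (0.79), the phospholipase gene Plcg1 (0.73) and the RAS activator gene Sos1 (0.68). With the length and GC offsets none of these 20 was called, and the same 4 genes had log2 fold changes of 0.37, 0.020, 0.24 and 0.28. Frs2, the adaptor that docks at FGF receptors, had 2355 ± 110 normalized counts against 2145 ± 109 and did not pass the test (log2 fold change 0.13).

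Of the 12 feedback and target genes tested, 2 were called higher. Flrt1, a membrane partner of FGF receptors, rose from 126.4, 109.9 and 91.6 normalized counts in control replicates 1 to 3 to 312.0, 252.8 and 248.6 in those of Kir2.1-OE (log2 fold change 1.31), and the phosphatase gene Dusp4 rose from 213.5 ± 8.68 to 377.9 ± 48.1 (log2 fold change 0.82). Both were also called with the offsets, at 0.70 and 0.73. Dusp6, the ERK phosphatase most used as a readout of FGF signalling, had 1899 ± 102 normalized counts against 2051 ± 167, and its groups overlapped.

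The ETS factor genes, which FGF signalling turns on, did not move together. Etv4 had 504.0, 576.6 and 466.5 normalized counts in Kir2.1-OE and 889.9, 691.5 and 652.5 in control replicates 1 to 3, with no overlap. Its log2 fold change of -0.53 passed the adjusted p-value (edgeR, 0.00973) but not the 1.5-fold threshold, which it passed with the offsets (-0.63), with upper quartile scaling (-0.62) and without Kir2.1-OE replicate 2 (-0.64) or control replicate 3 (-0.62). Etv5 had 3880 ± 334 against 3359 ± 127 (log2 fold change 0.21, edgeR adjusted p = 0.0512). The Sprouty-related genes Spred1 and Spred2 stood higher, with log2 fold changes of 0.29 and 0.50, both past the adjusted p-value (edgeR, 0.0108 and 0.0033) and under the fold threshold, and with the offsets they had 0.071 and 0.21.

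**Figure D5:**
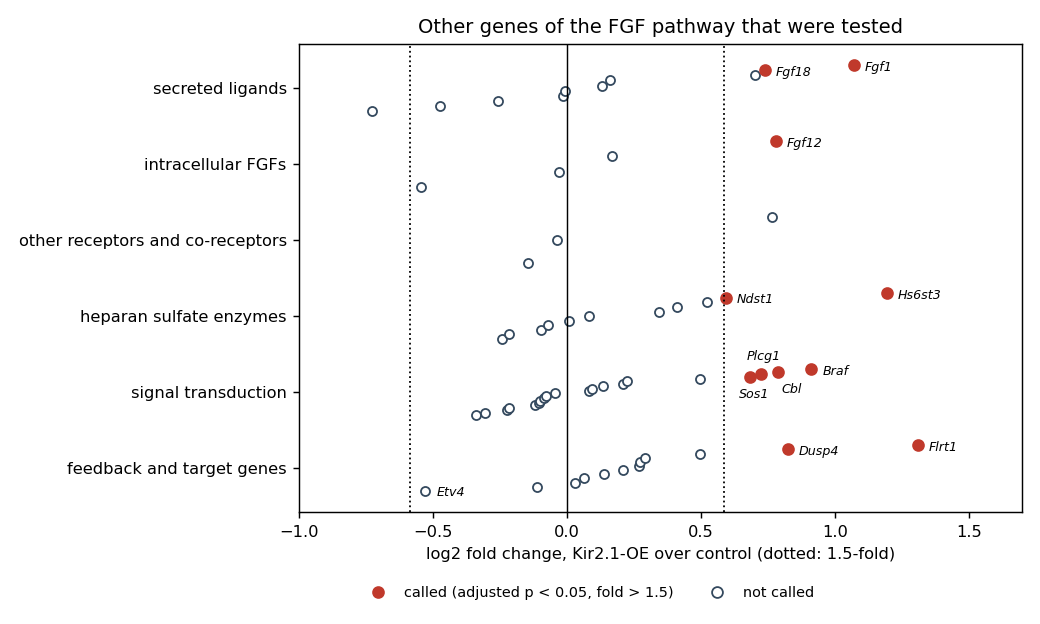
Log2 fold change (Kir2.1-OE over control) of the 60 other pathway genes tested, in 6 groups, with called genes filled in red and dotted lines at 1.5-fold. The 11 called genes all lie on the right, and Etv4 lies at -0.53 on the left, short of the line.

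Markers of other tissue in the dissection were counted in the same way, beside the 15.5% of all genes called higher and 5.08% called lower. The summed normalized count of the 9 cartilage and bone markers, cells that also use FGF receptors, lay between 820328 and 965615 in Kir2.1-OE and between 394249 and 548605 in control pools, with 4 called higher and 0 lower. Most of that sum was Col2a1, the main collagen of cartilage, with a mean of 574259 against 283892, which was not called with the offsets (log2 fold change 0.28). For the 5 endothelial markers it lay between 5433 and 5867 and between 2726 and 3890, with 4 called higher, and for the 8 spiral ganglion neuron markers between 30742 and 60928 and between 16889 and 24862, with 5 called higher. Of the 5 glia markers 1 was called higher, but all 5 passed the adjusted p-value as higher, beside 27.3% of all genes. Their median log2 fold change was 0.40, and 0.50 with the offsets. Of the 5 fibrocyte and mesenchyme markers 1 was called higher and 2 passed the adjusted p-value as higher. Of the 5 macrophage markers 0 were called, with 2 past the adjusted p-value as higher and 1 as lower. Of the melanocyte markers 2 of the 3 tested, and of the erythrocyte markers 3 of 5, were called lower, and 1 gene of each of these lists (Mlana and Hbb-bs) was at 0 in at least 1 library. Hair cell markers were called higher for 2 of 7 and lower for 1, outer hair cell markers higher for 3 of 5, and supporting cell markers higher for 1 of 7. The summed normalized count of the outer hair cell markers overlapped, between 24104 and 29499 in Kir2.1-OE and between 25678 and 32415 in control pools. Most of it was Ocm, with a mean of 17755 against 21916, which was not called (log2 fold change -0.30). Of these supporting cell markers 1 passed the adjusted p-value as higher and 2 as lower, and their median log2 fold change was -0.20 (-0.081 with the offsets). Their summed normalized count lay between 210766 and 230123 in Kir2.1-OE and between 236172 and 255785 in control pools. Most of it was Epyc, with a mean of 128621 against 162546. With the offsets 1 of 9 cartilage and bone, 1 of 5 endothelial, 2 of 5 outer hair cell, 1 of 7 hair cell, 2 of 5 glia and 5 of 8 spiral ganglion neuron markers were called higher, and 0 of 5 erythrocyte and 2 of 3 melanocyte markers lower. The background for these counts is the 903 genes called higher and 603 called lower with the offsets, of 15303 tested. The part of these cell types in the values of the FGF genes was not tested.

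For each FGF gene, the genes whose log2 normalized counts followed it most closely across the 6 libraries were sought among 13644 others, after the mean of each genotype was subtracted. The closest were Gramd1a and Zfp69 for Fgf8, Pou6f1 and Rock1 for Fgfr1, Bsdc1 and Lrp8 for Fgfr2, Faap100 and Arhgap10 for Fgfr3, Fbxo17 and Hist2h2be for Spry1, Cdk2 and Patz1 for Spry2, and Fam213a and Snx2 for Spry4, with Pearson's r between 0.994 and 1.00. Between 146 and 621 genes had r over 0.9 with each member, so a close match over 6 libraries is common, and none of the 7 members was among the closest genes of another.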

How the data were processed

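RNA of 6 pools of P9 cochlear sensory epithelium was enriched for poly(A) and sequenced in pairs by the authors, who mapped the reads to mm10 with the nf-core RNA pipeline and deposited expected counts, Salmon's estimated reads per gene, undivided by length or depth; versions and annotation are not given in the sources used here. The estimates (6.95% not whole) were rounded, scaled by TMM, filtered by filterByExpr and tested in edgeR 4.0.16 (R 4.3.3) with 1 model of genotype only and Benjamini-Hochberg adjustment over 15303 genes. Standard errors were taken from the log2 fold change and its F statistic. The members, gene lists and tests were chosen with earlier results of these data known. Named were the members, Kcnj2, called pathway genes (up to 3 a group, mean of at least 50) and 10 fixed pathway genes. The closest 2 genes per member and, of the markers, those of the within-pool ratios were named too. Npy, Sos1, Hs6st3, Hs2st1, Col2a1, S100a1, Epyc, Mlana, Hbb-bs, Ocm, Nefh, Snap25, Gata3, Tbx2 and Slc7a14 were named after their values were seen.

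Transcript lengths, GC content and loci came from GENCODE vM21, which matched 23376 symbols directly and 678 through an older symbol; 357 had no length and received no correction. Offsets were loess trends (span 0.4) over length and GC, fitted per library to its log2 deviation from the mean of all libraries. Spry3 was not analysed here. Protein sequences were not used here. The model was also run on simulated counts with known changes, whose outcome is not reported here. Those counts held no trend with length or GC content, so that run could not address the trend seen here. Libraries of a group differed by more than sampling noise (chi-square per degree of freedom 15.7 to 31.1). P-values measure the spread between pools, and counting error alone allows a gene at 0 a share of up to 8.47e-06% (3 counts in the smallest library). The control file labelled replicate 1 has another replicate number in its header, and the number of its title was used. The alternatives were other scalings (DESeq2 1.42.0 size factors, library size, upper quartile), other filters, a replicate block, length and GC offsets, each library left out, DESeq2's Wald test, limma-voom (limma 3.58.1), glmTreat against 0.6, and no fold threshold.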

Additional observations from a re-analysis of the deposited data

How the results depend on the processing

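The number of FGF genes called was 0 under every scaling, filter, block, offset, tool and left-out library, but 4 when the adjusted p-value alone was used. Genes called over all genes tested numbered 3143 (2365 higher, 778 lower), 2414 to 3448 when 1 library was left out (1878 to 2527 higher, 536 to 1074 lower), 1506 with length and GC offsets (903 higher), 1278 with these and the replicate block (743 higher), 889 with glmTreat against 0.6 (832 higher, 57 lower), 7774 with the adjusted p-value alone (4184 higher, 3590 lower) and, with upper quartile scaling, 1378 lower. Other pathway genes called numbered 11, 7 to 11 with 1 library left out (7 without Kir2.1-OE replicate 1, 8 with the replicate block; 8 higher and 2 lower with upper quartile scaling), 6 with offsets and block, 3 with glmTreat and 28 with the adjusted p-value alone. The replicate numbers showed no pairing of the pools: same-numbered pools correlated at -0.11, -0.23 and -0.21 in their deviations from the group means. Of the 3 Kir2.1-OE pools 0 correlated best with its own number. With 3 pools a group, and another number in the header of control replicate 1, this check cannot exclude a pairing. With the replicate block 2220 genes were called higher and 718 lower, 0 of them FGF genes, and Fgfr3 and Spry4 missed the adjusted p-value. With upper quartile scaling, which moved the median by -0.09 and the share higher among called genes from 75.2% to 57.9% (60.0% with the offsets, 93.6% with glmTreat and 53.8% with the adjusted p-value alone), Spry1 had -0.023 and Fgfr3 and Spry4 missed the adjusted p-value. With the offsets, signs changed for Fgfr1 (-0.049 and, with the block, -0.047), Fgfr3 (-0.082 and -0.087), Spry1 (-0.059 and -0.058), Spry2 (0.14 and 0.14), Spry4 (-0.035 and -0.030), Etv5 (-0.0032 and -0.0069), Fgf10 (0.0048 and 0.0094), Frs2 (-0.26 and -0.26), Ndst1 (-0.12 and -0.12) and Otof (-0.074 and -0.069). With 1 library left out, Fgf10 ranged from -0.19 to 0.11 and Slc17a8 from -0.0046 to 0.19. The cause was not tested. With 3 pools a group, a difference of the size seen in Fgf8, at about 100 reads per library, lay within the error.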
